A study of Homo sapiens with 24 samples.

Results

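NORAD, LRRC58 and ZCCHC14 are RNAs with a higher relative level in the insoluble than in the soluble cytoplasm of U2OS cells after treatment with NaAsO2. They are 3 of the 60308 genes with exon counts, and 3 of the 17666 that averaged 1 CPM or more over the libraries, where CPM scales the counts of each library to the same total. The 2 with introns are among the 37473 genes with intron counts. They were picked by symbol, with the Ctrl and NaAsO2 results of these data known. For the change of the fraction ratio by NaAsO2, they had the ranks 1, 4 and 2 of the 17666 genes by p-value, in the order NORAD, LRRC58 and ZCCHC14. The Ctrl and NaAsO2 libraries therefore give a description of these genes with no test, and tests were made only between libraries of cells that had received RK-33. Whether results of the RK-33 libraries also played a part in the choice is not known, so their p-values may not be free of it.

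U2OS is a human osteosarcoma cell line, and the only cell line analysed here. Sodium arsenite (NaAsO2) is an oxidative stressor that halts translation and induces stress granules (SGs), and RK-33 is a small molecule that inhibits the RNA helicase DDX3. Ctrl cells received DMSO (0.12%, 2 h). NaAsO2 was used at 500 µM, and lasted 60 min. RK-33 was used at 6 µM, added 1 h ahead, and Combo cells received RK-33 followed by NaAsO2 at those doses. Nuclei were spun out of each lysate, and a faster spin then gave a soluble fraction and an insoluble one that is enriched for ribonucleoprotein (RNP) granules. With 3 replicates of 4 treatments in 2 fractions, 24 rRNA-depleted libraries were sequenced.

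NORAD is a long noncoding RNA of the cytoplasm that carries many binding sites for the Pumilio proteins, which repress and destabilise the mRNAs they bind. ZCCHC14 encodes a protein with a CCHC zinc knuckle that works with the TENT4 enzymes, which add mixed tails to RNAs. LRRC58 encodes a protein with leucine-rich repeats. Stress granules take up untranslated mRNAs together with RNA-binding proteins.

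NORAD lies on the minus strand of GRCh38 at chr20:36045618-36051018 and was counted as 1 exon of 5401 nt, with no intron. LRRC58 lies on the minus strand at chr3:120324509-120349354, with 4 merged exons of 7918 nt in all, of which the 3′ UTR of its annotated coding transcript takes 6694 nt. ZCCHC14 lies on the minus strand at chr16:87406246-87493024, with 13 merged exons of 8369 nt in all and a 3′ UTR of 4035 nt. The divergent transcript ZCCHC14-DT overlaps an exon of ZCCHC14 on the other strand, and the counting took no account of strand, so that counts there are uncertain. A further 2 annotated genes lie within its introns. No other gene overlaps NORAD or LRRC58. The median exon length of the 17643 tested genes with a sequence was 4744 nt, and 42.9% of them were at least as long as NORAD, 22.7% as LRRC58 and 20.4% as ZCCHC14.

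Since NORAD is known for its Pumilio sites, the motif TGTANATA was searched on the sense strand of the merged exons of the 3 genes and of all tested genes. It was found 15 times in NORAD, 10 times as TGTATATA, 4 times as TGTAAATA and once as TGTACATA, and 10 of the 17643 genes (0.0567%) held as many. LRRC58 held 5 matches, all in its 3′ UTR, which 2.03% of the genes matched or passed. ZCCHC14 held 1 match, at the far end of its 3′ UTR, and 37.1% of the genes held at least 1. Their GC contents were 41.8% for NORAD, 38.0% for LRRC58 and 53.3% for ZCCHC14, against a median of 47.6%. The AU-rich nonamer TTATTTATT was at 0 in all 3. A match of letters is a description and shows no binding. In the window of NORAD match 5 below, the lower-case flank also holds match 4 (TGTATATA). The sequences below show 5 matches of NORAD picked for their like flanks (2, 11 and 14, and 3 and 6), 2 with other flanks (5 and 7), and what matches of the mRNAs look like, read 5′ to 3′ on the sense strand from GRCh38, with the motif in capitals:
NORAD match 2, chr20:36049803-36049832: cctcactactgTGTATATAgttgacaatgc
NORAD match 11, chr20:36047971-36048000: caaccctactgTGTATATAgcggacaaact
NORAD match 14, chr20:36047350-36047379: caatgctactgTGTATATAatggaaaactt
NORAD match 3, chr20:36049702-36049731: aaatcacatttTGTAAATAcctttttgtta
NORAD match 6, chr20:36049118-36049147: aaataccacttTGTAAATAtctttttgcta
NORAD match 5, chr20:36049492-36049521: tgtgtatatagTGTACATAaaggacagacg
NORAD match 7, chr20:36048904-36048933: ttgttttgctcTGTATATAgtatatataat
LRRC58 match 3, chr3:120328966-120328995: tcttttacagaTGTAAATAggtccaaccag
LRRC58 match 4, chr3:120326752-120326781: cggttatattaTGTATATAtgaggttagtt
ZCCHC14 match 1, chr16:87406399-87406428: agatatagtttTGTAAATAtttaatattcc

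The matches of NORAD began between 818 and 4656 nt after its start, with a median gap of 258.5 nt between neighbours. In LRRC58, they lay 1949 to 5544 nt into the 3′ UTR, and in ZCCHC14 the match lay 3865 nt into it. NORAD thus held its matches through the middle of the RNA, and the closest lay 9 nt apart.

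**Figure D1:**
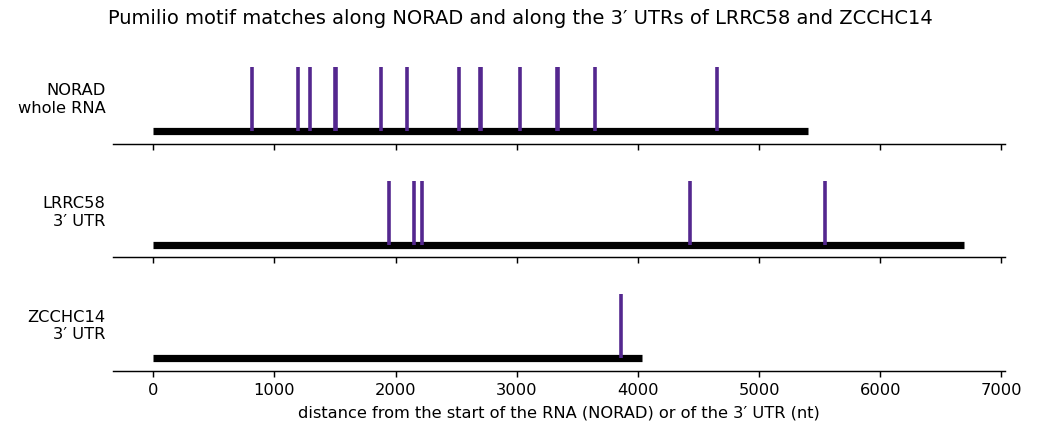
Matches of the Pumilio motif TGTANATA (vertical lines) along NORAD and along the 3′ UTRs of LRRC58 and ZCCHC14 (black bars), with the distance in nt from the start of the RNA or of the 3′ UTR on the x axis. The 15 matches of NORAD, some 9 nt apart and drawn as a thicker line, stand against 5 in LRRC58 and 1 in ZCCHC14.

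The libraries held 10968059 to 19799530 exon plus intron counts. NORAD had 1576 to 8396 exon counts in a library, LRRC58 793 to 5842 and ZCCHC14 621 to 5000. RN7SL1, the RNA of the signal recognition particle, held 7.51% to 15.5% of the exon counts in soluble libraries and 0.426% to 5.79% in insoluble ones, where the highest value was that of NaAsO2 replicate 3 and the next was 1.23%. Of 8 mesenchymal and osteosarcoma markers, 6 had a mean of at least 1 CPM, and COL1A2 and TWIST1 did not. Of 9 markers of epithelial, immune, neuronal and erythroid cells, 6 also passed 1 CPM, and the 9 summed to 17.7 to 43.9 CPM against 4532 to 9479 CPM for the 8. The replicates are numbered in the labels, and per the study's methods the fractionation was repeated for each of the 3, without a word on how the cultures were kept apart, so that p-values measure the spread between these repeats of 1 cell line.

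Levels are given as CPM per kb of exon after TMM scaling, and each is a share of the RNA of its own fraction. They do not give the amount of RNA in a fraction, and fewer cells and less RNA per cell cannot be told apart. The fraction ratio is the log2 of the insoluble over the soluble CPM of libraries with the same treatment and replicate number.

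NORAD was lower in the insoluble than in the soluble fraction of unstressed cells, and higher in it after NaAsO2. In Ctrl, replicates 1 to 3 held 55.1, 51.6 and 51.0 CPM per kb of NORAD in the soluble fraction and 41.1, 39.8 and 40.6 CPM per kb in the insoluble fraction. After NaAsO2, NORAD stood at 32.9, 34.9 and 31.4 CPM per kb in the soluble and at 107, 109 and 134 CPM per kb in the insoluble fraction. The soluble level was lower and the insoluble level higher than in Ctrl, with no overlap with Ctrl in either fraction. With RK-33 alone, NORAD was nearly level between the fractions, at 46.9, 48.7 and 49.1 CPM per kb in the soluble and 47.6, 46.1 and 50.4 CPM per kb in the insoluble fraction. In Combo, the soluble level of NORAD was 38.8, 45.8 and 45.2 CPM per kb, and the insoluble level was 85.6, 100.4 and 99.4 CPM per kb. In each fraction, the 4 treatments did not overlap for NORAD. The insoluble order was Ctrl, RK-33, Combo, NaAsO2 from low to high, and the soluble order was the reverse.

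The fraction ratio of NORAD was -0.42, -0.37 and -0.33 in Ctrl and 1.70, 1.65 and 2.09 after NaAsO2. It was 0.021, -0.079 and 0.039 with RK-33, and 1.14, 1.13 and 1.14 in Combo. The NaAsO2 value of 2.09 belongs to the replicate with the high RN7SL1 share in its insoluble library, and without it the mean of NaAsO2 was 1.67 in place of 1.81. The part of RN7SL1 in this value was not tested.

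LRRC58 had like levels in both fractions of unstressed cells and a higher level in the insoluble fraction after NaAsO2. In Ctrl, its level was 20.2, 19.2 and 18.1 CPM per kb in the soluble fraction and 18.7, 19.1 and 21.8 CPM per kb in the insoluble fraction. After NaAsO2, LRRC58 was at 11.3, 12.97 and 11.2 CPM per kb in the soluble and 52.5, 48.5 and 55.2 CPM per kb in the insoluble fraction. All NaAsO2 values lay below Ctrl in the soluble and above it in the insoluble fraction. With RK-33, LRRC58 stood at 17.8, 15.3 and 16.4 CPM per kb in the soluble fraction and 22.5, 21.3 and 24.7 CPM per kb in the insoluble fraction, where the values overlapped with those of Ctrl. In Combo, the soluble level was 12.7, 13.4 and 13.996 CPM per kb, overlapping with NaAsO2, and the insoluble level was 42.9, 46.6 and 36.0 CPM per kb, between RK-33 and NaAsO2.

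The fraction ratio of LRRC58 was -0.11, -0.0086 and 0.27 in Ctrl and 2.21, 1.90 and 2.30 after NaAsO2. It was 0.34, 0.48 and 0.59 with RK-33, and 1.75, 1.80 and 1.36 in Combo. No pair of treatments overlapped.

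ZCCHC14 was already higher in the insoluble fraction of unstressed cells. In Ctrl, its level was 15.7, 15.1 and 13.8 CPM per kb in the soluble fraction and 21.6, 19.99 and 21.7 CPM per kb in the insoluble fraction. After NaAsO2, ZCCHC14 stood at 8.38, 8.58 and 8.17 CPM per kb in the soluble and 40.7, 41.9 and 39.9 CPM per kb in the insoluble fraction. These replicates were close to each other, and neither fraction overlapped with Ctrl. With RK-33, the soluble level was 14.5, 13.98 and 13.7 CPM per kb, overlapping with Ctrl, and the insoluble level was 32.3, 33.9 and 30.2 CPM per kb, above all Ctrl values. In Combo, ZCCHC14 was at 11.5, 11.8 and 10.97 CPM per kb in the soluble and 34.2, 37.0 and 36.7 CPM per kb in the insoluble fraction. The insoluble values of RK-33 and Combo were neighbours, with a highest RK-33 value of 33.9 and a lowest Combo value of 34.2 CPM per kb.

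The fraction ratio of ZCCHC14 was 0.46, 0.41 and 0.65 in Ctrl and 2.28, 2.29 and 2.29 after NaAsO2. It was 1.16, 1.28 and 1.14 with RK-33, and 1.57, 1.65 and 1.74 in Combo. As for LRRC58 and NORAD, the order was Ctrl, RK-33, Combo, NaAsO2, with no overlap between treatments. With exon and intron counts added up and scaled together, the mean ratio of ZCCHC14 with RK-33 was 0.76 in place of 1.19, that of LRRC58 was 0.23 in place of 0.47, and that of NORAD was -0.28 in place of -0.0063.

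**Figure D2:**
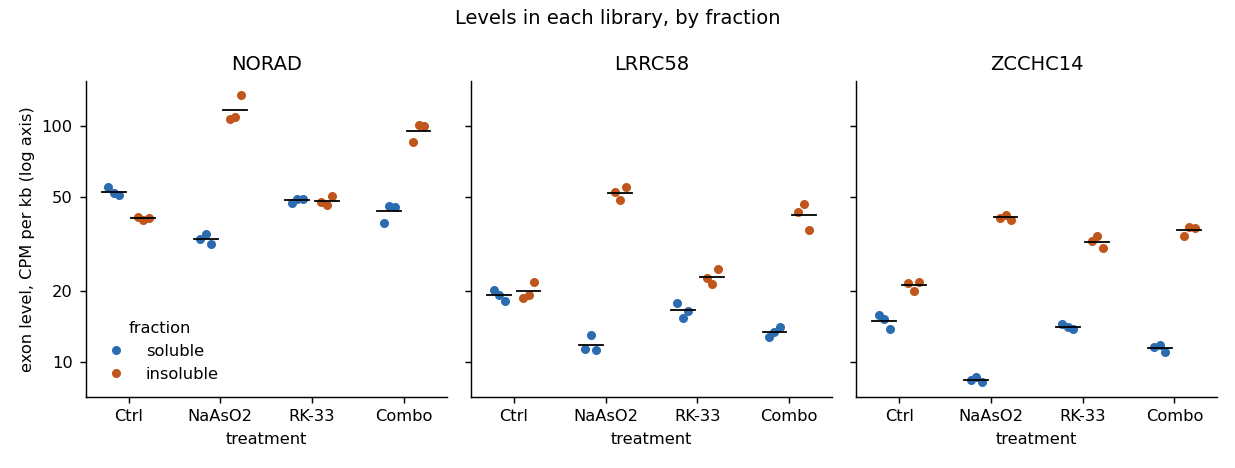
Exon level of NORAD, LRRC58 and ZCCHC14 in CPM per kb (log axis) in each of the 24 libraries, by treatment, with soluble libraries in blue, insoluble libraries in orange and group means as black lines. After NaAsO2 the fractions move apart in all 3 genes, and the insoluble NORAD level reaches 107 to 134 CPM per kb against 39.8 to 41.1 in Ctrl.

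Per kb of exon, NORAD was the most abundant of the 3 in every library. In Ctrl, the mean level in the soluble fraction was 52.6 ± 2.21 CPM per kb (SD, n = 3) for NORAD, 19.1 ± 1.04 for LRRC58 and 14.9 ± 0.983 for ZCCHC14. In the insoluble fraction of NaAsO2, the means were 117 ± 15.2 CPM per kb for NORAD, 52.0 ± 3.37 for LRRC58 and 40.8 ± 1.04 for ZCCHC14 (SD, n = 3 each). The order by fraction ratio was the reverse in Ctrl and with RK-33, with ZCCHC14 highest and NORAD lowest and no overlap between neighbours. After NaAsO2, the ratios of LRRC58 overlapped with those of both others. In Combo, LRRC58 and ZCCHC14 overlapped, and NORAD was below both.

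**Figure D3:**
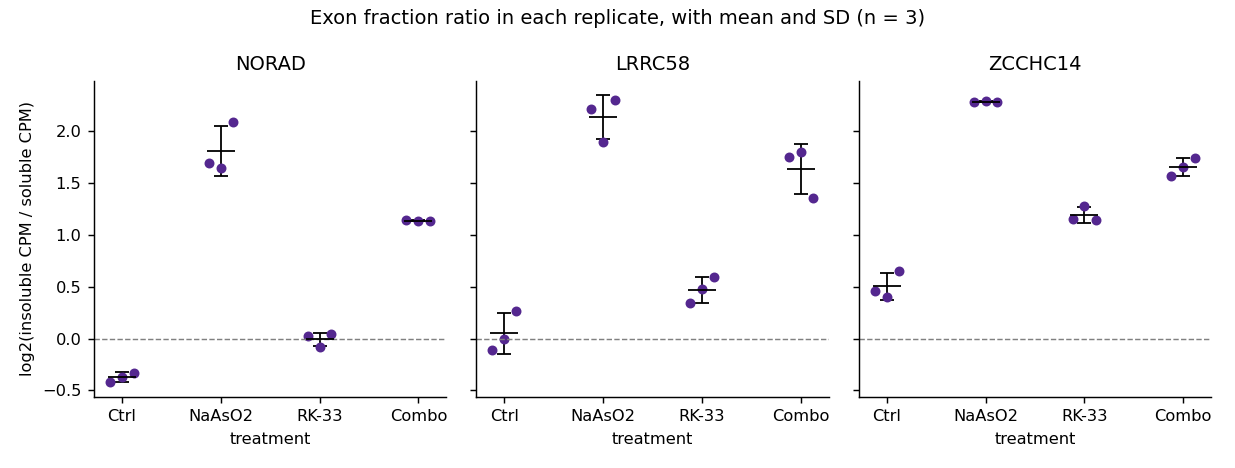
Log2 ratio of insoluble to soluble exon CPM for NORAD, LRRC58 and ZCCHC14 in each of 3 replicates per treatment (points), with mean and SD (bars); 0 marks equal levels. Every gene runs in the order Ctrl, RK-33, Combo, NaAsO2, and the step from RK-33 to Combo is 1.14 for NORAD, 1.17 for LRRC58 and 0.46 for ZCCHC14.

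In cells given RK-33 alone, the fractions were compared between libraries of neither Ctrl nor NaAsO2. The spread and the scaling came from all 24 libraries, the Ctrl and NaAsO2 ones included. ZCCHC14 was higher in the insoluble fraction, by 1.19 on the log2 scale (SE 0.087), or 2.29-fold, with an adjusted p of 3.06e-10 in edgeR's quasi-likelihood test with Benjamini-Hochberg adjustment over 17666 genes. LRRC58 was higher by 0.47 (SE 0.11, adjusted p = 0.000888), and NORAD differed by -0.0057 (SE 0.10, adjusted p = 0.966). With the 12 RK-33 and Combo libraries alone, the adjusted p was 8.61e-09 for ZCCHC14, 0.00175 for LRRC58 and 0.879 for NORAD. Thus 2 of the 3 were called higher, in a comparison in which 29.2% of all tested genes were. The call of LRRC58 was lost without the filter on low counts (log2 difference 0.33, adjusted p = 0.136), and its difference was 0.25 (adjusted p = 0.0473) after each library's trend with exon length was removed. The sign of NORAD differed between scalings, from -0.0057 with TMM to 0.044 with library size alone.

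In Combo, all 3 were called higher in the insoluble fraction, as were 24.1% of all tested genes. The log2 difference was 1.14 for NORAD (SE 0.10, adjusted p = 7.19e-09), or 2.20-fold. For LRRC58 it was 1.64 (SE 0.11, adjusted p = 1.26e-10), or 3.13-fold, and for ZCCHC14 1.65 (SE 0.088, adjusted p = 6.97e-12), or 3.15-fold. By size, 98.1% of the tested genes had a lower difference than ZCCHC14 and 98.1% a lower one than LRRC58, against 92.3% for NORAD.

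Whether NaAsO2 moved the RNAs when RK-33 had been given first was tested as the difference between the fraction effects of Combo and RK-33. The ratio of NORAD rose by 1.14 on the log2 scale (SE 0.15, adjusted p = 0.000339), or 2.21-fold, and that of LRRC58 by 1.17 (SE 0.16, adjusted p = 0.00048), or 2.26-fold. For ZCCHC14, the difference was 0.46 (SE 0.12, adjusted p = 0.0886), or 1.38-fold, which did not pass the threshold. With the 12 libraries alone, the adjusted p was 0.000836 for NORAD, 0.00111 for LRRC58 and 0.0913 for ZCCHC14. So 2 of the 3 were called higher, against 0.345% of all tested genes, and NORAD and LRRC58 had the ranks 4 and 5 by p-value. DESeq2 gave an adjusted p of 0.00149 for ZCCHC14, and whether its shift differs from that of NORAD or LRRC58 was not tested. With the lysate as a replicate block in edgeR, the adjusted p was 0.0121 for NORAD and 0.0289 for LRRC58, and ZCCHC14 was not called. That fit called 9 genes higher in place of 61. By replicate, the Combo ratios of each gene were all above its RK-33 ratios, which held for 11% of the 17486 genes with no count of 0. The exact two-sided permutation test gave p = 0.1 for each, the smallest p that 3 against 3 allows.

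By point estimate, the larger part of that shift lay in the insoluble fraction for NORAD and LRRC58. For ZCCHC14 it lay in the soluble one, where edgeR called neither part. The parts were not tested against each other. Between Combo and RK-33, the insoluble level of NORAD rose by 0.99 on the log2 scale (SE 0.10, adjusted p = 1.65e-06) and that of LRRC58 by 0.87 (SE 0.11, adjusted p = 1.79e-05). The insoluble level of ZCCHC14 differed by 0.16 (SE 0.086, adjusted p = 0.297). Thus 2 of 3 were called, against 4.17% of all genes called higher. In the soluble fraction, 0 of 3 were called by edgeR's quasi-likelihood test, against 3.65% of genes called in either direction. The soluble differences were -0.16 for NORAD (SE 0.10, adjusted p = 0.531), -0.30 for LRRC58 (SE 0.11, adjusted p = 0.158) and -0.30 for ZCCHC14 (SE 0.087, adjusted p = 0.0558). Without adjustment, the p-values were 0.142, 0.0118 and 0.00217, so that 2 of the 3 were under 0.05. By DESeq2, 2 of the 3 passed the threshold, with adjusted p-values of 0.0433 for LRRC58 and 0.00282 for ZCCHC14. ZCCHC14 also passed with the length trend removed (adjusted p = 0.0305).

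The shift by NaAsO2 in cells without RK-33, which chose the genes, is given as a description. It was 2.19 for NORAD (SE 0.15), 2.09 for LRRC58 (SE 0.16) and 1.78 for ZCCHC14 (SE 0.12). In this shift, the insoluble level was higher by 1.53 for NORAD, 1.39 for LRRC58 and 0.95 for ZCCHC14, and the soluble level was lower, with log2 differences of -0.67, -0.69 and -0.83. ZCCHC14 thus had the smallest difference in the insoluble fraction and the largest in the soluble one.

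With RK-33, the shift by NaAsO2 was smaller than without it by 1.05 for NORAD (SE 0.21), 0.91 for LRRC58 (SE 0.22) and 1.32 for ZCCHC14 (SE 0.17) on the log2 scale. It was smaller from both ends. The ratio with RK-33 alone was above that of Ctrl by 0.37 for NORAD (SE 0.15), 0.42 for LRRC58 (SE 0.15) and 0.69 for ZCCHC14 (SE 0.12), and the ratio of Combo was below that of NaAsO2, with differences of -0.68 (SE 0.15), -0.49 (SE 0.15) and -0.63 (SE 0.12). Of all 17666 tested genes, 82.1% had a lower difference of RK-33 minus Ctrl than NORAD, 84.9% than LRRC58 and 94.5% than ZCCHC14. For Combo minus NaAsO2, 8.58% of the tested genes had a lower difference than NORAD, 15.7% than LRRC58 and 10.0% than ZCCHC14. The medians over all tested genes were 0.0056 for RK-33 minus Ctrl and 0.0016 for Combo minus NaAsO2. All these differences use libraries that chose the genes and carry no test. Genes chosen for a large shift tend to show a smaller one in other libraries. That effect of the choice and an effect of RK-33 cannot be told apart here, and the SEs do not cover it.

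**Figure D4:**
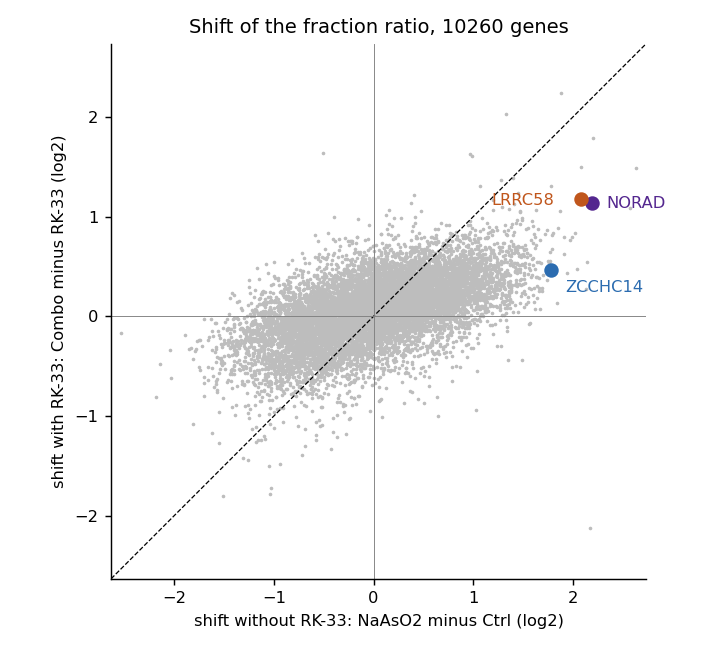
Shift of the log2 fraction ratio by NaAsO2 with RK-33 (Combo minus RK-33, y axis) against that without RK-33 (NaAsO2 minus Ctrl, x axis) for the 10260 genes averaging 10 CPM or more, with NORAD, LRRC58 and ZCCHC14 marked; the dashed line marks equal shifts. All 3 lie far to the right by choice and below the line, NORAD and LRRC58 at a shift with RK-33 of 1.14 and 1.17 and ZCCHC14 at 0.46. Genes chosen for a large value on the x axis tend to lie below the line, which cannot be told apart from an effect of RK-33 here.

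Across the 10260 genes averaging 10 CPM or more, the shifts with and without RK-33, which share no library, had a Pearson r of 0.58 and a Spearman rho of 0.58, as a description over genes that are not independent. The median shift of these genes was 0.014 without and 0.079 with RK-33. Without RK-33, NORAD, LRRC58 and ZCCHC14 had the ranks 4, 8 and 24 by size. With RK-33, NORAD and LRRC58 had the ranks 17 and 15, and ZCCHC14 had the rank 1042.

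The summed level of nuclear RNAs was lower in Combo than with RK-33 in the insoluble fraction, and overlapped between them in the soluble fraction. The 6 nuclear RNAs of a fixed list, among them MALAT1 and NEAT1, summed to 11672 to 12423 CPM in the insoluble fraction with RK-33 and to 7914 to 10972 CPM in Combo. In the soluble fraction, they summed to 13878 to 18931 CPM with RK-33 and 14748 to 18377 CPM in Combo, and RN7SK was at 0 in every library. Without RK-33, the insoluble sums were 10401 to 14190 CPM in Ctrl and 5318 to 6243 CPM after NaAsO2. The soluble sums were 14951 to 21142 CPM in Ctrl and 11060 to 13478 CPM after NaAsO2. These sums use CPM without TMM scaling, and they join RNAs that differ in direction. With RK-33, the log2 difference between fractions was -1.19 for MALAT1 and 2.36 for NEAT1. The part of the nuclear RNAs in the results was not tested.

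Intron counts gave a second readout of LRRC58 and ZCCHC14, while NORAD has no intron. The introns of both genes showed no called difference between fractions in RK-33 or in Combo. LRRC58 had few intron counts, 31 to 150 in a library, and ZCCHC14 had 316 to 1110. By replicate, the intron ratio of LRRC58 was -0.19, 0.41 and 0.19 with RK-33 and 0.60, -0.024 and -0.57 in Combo. For ZCCHC14, it was -0.14, -0.27 and -0.23 with RK-33 and -0.14, -0.27 and 0.56 in Combo. The replicates of Combo differed in sign for both genes, and the groups overlapped.

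In edgeR's quasi-likelihood test, the intron difference between fractions with RK-33 was 0.12 for LRRC58 (SE 0.21, adjusted p = 0.66) and -0.22 for ZCCHC14 (SE 0.14, adjusted p = 0.193). In Combo it was -0.031 for LRRC58 (SE 0.21, adjusted p = 0.927) and 0.063 for ZCCHC14 (SE 0.14, adjusted p = 0.764). Without adjustment, 0 of these 4 p-values were under 0.05, and DESeq2 also called 0 of 4. The introns of ZCCHC14 with RK-33 were called lower with library size alone (-0.69, adjusted p = 0.000439) and at a mean of 10 CPM (-0.33, adjusted p = 0.0397), and library size alone gave -0.34 for LRRC58 (adjusted p = 0.133). Of all intron rows, 47.8% were called with RK-33 and 29.9% in Combo. The intron shift from RK-33 to Combo was -0.15 for LRRC58 (SE 0.29, adjusted p = 0.831) and 0.28 for ZCCHC14 (SE 0.19, adjusted p = 0.466), in a comparison that called 0.73% of the rows. In Ctrl, the intron ratio was -0.030, 0.092 and 0.16 for LRRC58 and -0.22, -0.16 and 0.026 for ZCCHC14. After NaAsO2, it was -0.025, -0.83 and -0.25 for LRRC58, where the exon ratio was at least 1.90 in each replicate, and 0.35, 0.80 and 0.25 for ZCCHC14.

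**Figure D5:**
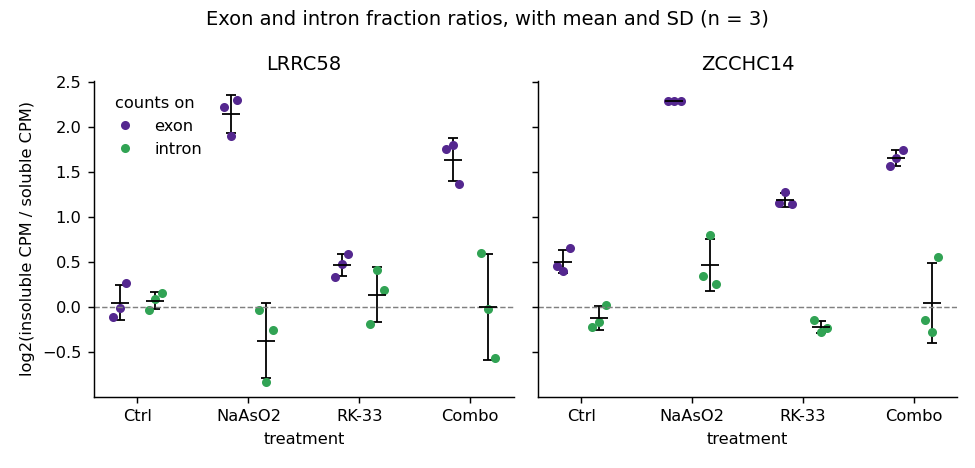
Log2 ratio of insoluble to soluble CPM from exon counts (purple) and intron counts (green) of LRRC58 and ZCCHC14, in each of 3 replicates per treatment, with mean and SD (bars). The exon ratios of LRRC58 in Combo lie at 1.36 to 1.80 and its intron ratios at -0.57 to 0.60.

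The number of intron counts per 100 exon counts of the same library depends on no scaling between libraries. For ZCCHC14, it was 57.3, 54.8 and 45.8 in the soluble and 34.1, 37.2 and 37.0 in the insoluble fraction with RK-33. In Combo, it was 53.9, 58.8 and 68.9 in the soluble and 23.7, 21.5 and 23.2 in the insoluble fraction. The insoluble libraries thus held fewer intron counts of ZCCHC14 for their exon counts, with no overlap (exact two-sided permutation test, p = 0.1 in each treatment, the smallest that 3 against 3 allows). All insoluble values were below all soluble values for 4.58% of 13070 genes with RK-33 and for 16.7% in Combo. For LRRC58, the fractions overlapped with RK-33, at 5.92, 4.16 and 3.25 in the soluble and 6.02, 7.87 and 5.17 in the insoluble fraction (exact permutation test, p = 0.2). In Combo, LRRC58 stood at 3.68, 4.73 and 8.54 in the soluble and 2.38, 1.85 and 1.72 in the insoluble fraction, without overlap (exact permutation test, p = 0.1). In the insoluble fraction of NaAsO2, the number was 0.841 to 1.22 for LRRC58 and 15.3 to 22.1 for ZCCHC14, against 8.40 to 8.93 and 46.0 to 50.2 in Ctrl. Over all genes, introns also held a smaller share of the exon plus intron counts of these libraries. That share was 17.2% to 24.3% after NaAsO2, against 30.5% to 36.3% in Ctrl. How far the values of the 2 genes go beyond this difference was not tested.

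The genes most like each of the 3 were sought among 9457 genes averaging 10 CPM or more in both fractions, by the Pearson correlation of the 12 fraction ratios. These points share libraries and treatments, and the values are a description. For NORAD, the nearest were UBL3, a ubiquitin-like protein (r = 0.990), SPRED1, an inhibitor of Ras signalling (r = 0.990), CAB39, a partner of the kinase LKB1 (r = 0.988), MEX3C, an RNA-binding ubiquitin ligase (r = 0.987), and NOL4L (r = 0.984). LRRC58 had the rank 7 for NORAD (r = 0.983), and ZCCHC14 the rank 34 (r = 0.956).

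For LRRC58, the nearest were SPRED1 (r = 0.987), NORAD (r = 0.983), CAB39 (r = 0.982), UBL3 (r = 0.980) and MEX3C (r = 0.972). These genes were picked by that correlation, so that a shared order of treatments follows from the choice. Their mean ratios were lower than those of LRRC58. The mean ratio of SPRED1, with 5 Pumilio matches in 7750 nt, was -0.15 in Ctrl, 1.70 after NaAsO2, 0.23 with RK-33 and 1.29 in Combo. UBL3, with 2 matches in 4317 nt, had -0.55, 0.69, -0.25 and 0.33 in the same order.

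The nearest to ZCCHC14 were CUX1, a homeobox transcription factor (r = 0.988), TET3, an enzyme that oxidises 5-methylcytosine in DNA (r = 0.987), ZBED4 (r = 0.980), MEX3C (r = 0.979) and CYTH3, an exchange factor for ARF GTPases (r = 0.978). NORAD had the rank 40 for ZCCHC14 and LRRC58 the rank 79. CUX1, TET3, ZBED4 and CYTH3 shared with ZCCHC14 a ratio above 0 in Ctrl, from 0.48 for CYTH3 to 0.82 for ZBED4. Their ratio with RK-33 was 1.03 for CUX1 to 1.41 for ZBED4, close to the 1.19 of ZCCHC14. MEX3C shared neither, with a ratio of -0.24 in Ctrl and 0.21 with RK-33. The merged exons of these neighbours were 5808 nt in CYTH3 to 17765 nt in CUX1.

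Related genes were looked at through fixed lists. Of 5 known Pumilio target mRNAs, 5 were called higher in the insoluble fraction of Combo, where 24.1% of all tested genes were called higher and 28% lower, from CDKN1B, a cell cycle inhibitor, at 0.48 to E2F3, a transcription factor of the cell cycle, at 1.05. With RK-33, 3 of them were called higher, against 29.2% of all genes, and 30.4% of all genes were called lower. Their shift from RK-33 to Combo had a median of 0.26 against 0.012 over all genes and was called for 0 of 5 by edgeR's quasi-likelihood test, with 2 at an unadjusted p under 0.05. DESeq2 called 2 of the 5, E2F3 and CDKN1B. The values ran from CDKN1B at 0.87 (SE 0.24, adjusted p = 0.101) to the p38 kinase MAPK14 at -0.14. Of 10 mRNAs of the CCR4-NOT deadenylase, which shortens poly(A) tails, 1 was called higher and 5 lower in Combo, with the scaffold CNOT1 at 1.52 and the deadenylase CNOT7 at -1.27, and edgeR's quasi-likelihood test called 0 of 10 for the shift, with 0 at an unadjusted p under 0.05 and 0 by DESeq2.

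Of 5 mRNAs of the mixed tailing machinery, 4 were called higher and 0 lower in Combo, against 24.1% and 28% of all genes, with a median of 0.96. The poly(A) polymerase TENT4A was at 1.26 (SE 0.12, adjusted p = 1.88e-08) and SAMD4B at 0.22 (SE 0.11, adjusted p = 0.0833). ZCCHC14 was the highest of 12 genes of CCHC proteins in Combo, of which 4 were called higher and 3 lower, shares near those of all genes, and the lowest was ZCCHC9 at -1.15. For the shift from RK-33 to Combo, edgeR's quasi-likelihood test called 0 of the 5 and 0 of the 12, with 1 and 3 at an unadjusted p under 0.05. DESeq2 called 0 of the 5 and, of the 12, ZCCHC14 alone. The extremes were ZCCHC3 highest at 0.69 and ZCCHC7 lowest at -0.40.

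LRRC58 was also the highest of 17 genes named LRRC in Combo, where 5 were called higher and 3 lower, against 24.1% and 28% of all genes. The lowest was LRRC59, a ribosome-binding protein of the endoplasmic reticulum, at -0.82. LRRC58 was the 1 gene of the 17 called for the shift from RK-33 to Combo, by edgeR and by DESeq2, and LRRC49 was the lowest at -0.53.

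All 5 mRNAs that are often imaged in stress granules were called higher in the insoluble fraction with RK-33 and in Combo, against 29.2% and 24.1% of all genes. In Combo, they ran from CDK6 at 1.10 to AHNAK, a giant scaffold protein, at 3.93, so that NORAD, LRRC58 and ZCCHC14 lay within their range. For the shift from RK-33 to Combo, edgeR's quasi-likelihood test called 0 of the 5, with 2 at an unadjusted p under 0.05 and 0 by DESeq2, from DYNC1H1, the dynein heavy chain, at -0.49 to PEG3 at 0.56. Of the 5 tested nuclear RNAs, 3 were called higher and 2 lower in Combo, where 24.1% and 28% of all genes were. Of the 6 tested mesenchymal and osteosarcoma markers, 2 were called higher and 2 lower in Combo, and of the 6 tested markers of other cell types 0 and 1 by edgeR's quasi-likelihood test, with 2 at an unadjusted p under 0.05 and 1 called by DESeq2. NEAT1, the RNA of paraspeckles, was the lowest for the shift, at -1.21 (SE 0.27, adjusted p = 0.0432), in a comparison that called 0.136% of genes lower, and thus the reverse of NORAD. Within these lists, no other member had a higher shift than NORAD and LRRC58. The counts over the lists, without a test of the lists, are descriptions. The lists were chosen with earlier results of these data known, and were not matched for exon length. Over all tested genes, the median Combo difference was -0.10 for those with 0 Pumilio matches and 0.50 for those with 5 to 9. The median exon lengths of these groups were 3613 and 14253 nt. The part of exon length in the list counts was not tested.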

How the data were processed

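The authors aligned reads from 24 directional, rRNA-depleted libraries to GRCh38 (STAR 2.7.2b and SAMtools 1.2, per the submitters' processing notes) and deposited raw counts of fragments per gene on the exons and, separately, on the introns of GENCODE release 40, made with featureCounts 1.5.3 without strand, with at least 25 bases of overlap for introns. The deposited counts are not normalized. Genes split over several lines (1 exon row and 21 intron rows) were rejoined. The circRNA tables were not used.

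The members and gene lists were chosen with earlier results of these data known. Named genes were the 3 members, the 5 most correlated genes of each, and the highest and lowest genes of fixed lists. E2F3 and CDKN1B are also named for their DESeq2 calls, and HCG11 and ENSG00000287643 were chosen after their values were seen. RN7SL1, RN7SK, COL1A2 and TWIST1 are named in checks of the libraries. The result of 1 list is not reported here.

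Genes averaging 1 CPM or more (17666 by exons, 17406 by introns) were scaled with TMM and fitted together over the 24 libraries, 1 coefficient for each of 8 groups, and tested by quasi-likelihood in edgeR, with Benjamini-Hochberg adjustment and a threshold of 0.05. Ratios pair libraries of the same treatment and replicate number, taken as 1 lysate as in the study's paired comparison. Libraries held 10968059 to 19799530 counts, and a value's SE carries the depth. The scripts were tested on simulated data. Exon sequence came from GRCh38 with the coordinates of the count table, and UTRs from GENCODE release 44. Alternatives were other scalings, filters, tests and sample sets, a replicate block, the removal of the trend with exon length, and each library left out. The software was R 4.3.3, edgeR 4.0.16, limma 3.58.1, DESeq2 1.42.0, Python with numpy, pandas and scipy.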

Additional observations from a re-analysis of the deposited data

Results flagged for a closer look

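The difference between the fraction effects of Combo and RK-33 passed edgeR's quasi-likelihood test for NORAD, at 1.14 on the log2 scale (adjusted p = 0.000339), and for LRRC58, at 1.17 (adjusted p = 0.00048), with Benjamini-Hochberg adjustment.

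For NORAD, the exon fraction ratio was below 0 in all 3 Ctrl replicates and above 0 in all 3 replicates of NaAsO2 and of Combo. The means differed by 2.19 between NaAsO2 and Ctrl and by 1.51 between Combo and Ctrl. The introns of ZCCHC14 had a ratio above 0 in all 3 NaAsO2 replicates and below 0 in all 3 replicates of RK-33, with a difference of -0.69 for RK-33 minus NaAsO2. These 3 differences were not tested.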

How the results depend on the processing

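The calls of NORAD and LRRC58 for the shift from RK-33 to Combo held under 22 of 22 alternatives, at 1.06 to 1.24 and 1.10 to 1.26 on the log2 scale. Those of all 3 genes in Combo held under 22 of 22, and so did that of ZCCHC14 with RK-33. The call of LRRC58 with RK-33 held under 21 of 22, and was lost without the filter (0.33). The cause of this and of the other changes was not tested. NORAD, which was not called with RK-33, changed sign to 0.013 with RLE factors, 0.044 with library size alone, 0.084 at a mean of 10 CPM, 0.013 with DESeq2 and 0.048 with the length trend removed, and lay at -0.080 to 0.031 with 1 library left out. DESeq2 called the shift of ZCCHC14 (0.48) and the soluble differences of LRRC58 (-0.31) and ZCCHC14 (-0.31), and the last also passed with the length trend removed (-0.32).

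For introns, the median of all genes with library size alone was -0.55 with RK-33, -0.29 in Combo, 0.18 for the shift and -0.17 in the soluble fraction, against -0.085, -0.029, -0.020 and 0.021 with TMM. It gave -0.34 for LRRC58 and -0.69 for ZCCHC14 with RK-33, the latter called, -0.21 for ZCCHC14 in Combo, 0.055 for the shift of LRRC58, and -0.46 for the soluble difference of ZCCHC14, which was called. At a mean of 10 CPM, ZCCHC14 was called with RK-33 (-0.33). The intron difference of LRRC58 in Combo was 0.0025 with the 12 libraries alone, and the insoluble difference of ZCCHC14 was -0.016 with RLE factors, -0.0038 without the filter and -0.016 with DESeq2. With 1 library left out, intron values of uncalled results ran from -0.21 to 0.23 for LRRC58 and from -0.12 to 0.16 for ZCCHC14 in Combo, from -0.33 to 0.11 for the shift of LRRC58, from -0.17 to 0.10 for the insoluble difference of ZCCHC14 and from -0.42 to 0.020 for the soluble one of LRRC58.

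Counts of exon genes moved more. At a mean of 10 CPM, 3254 genes were higher and 3502 lower with RK-33, against 5164 and 5368. For the shift, 61 higher and 24 lower genes became 18 and 4 with library size alone, 98 and 96 without the filter, 122 and 147 with the likelihood ratio test, 191 and 132 with DESeq2, and 138 and 98 with the 12 libraries alone. Leaving out 1 library gave 18 to 62 and 3 to 29, with the fewest higher genes without the insoluble RK-33 replicate 2 (18), the soluble RK-33 replicate 3 (23), the insoluble RK-33 replicate 1 (33), the soluble Combo replicates 3 (35) and 1 (37), the soluble RK-33 replicate 2 (36) and the insoluble Combo replicates 2 (38) and 1 (39). In the insoluble fraction, 736 genes higher in Combo became 467 with library size alone and 363 to 774 with 1 library left out, and 522 lower became 306 at 10 CPM, 796 with the 12 libraries and 191 to 537. In the soluble fraction, 513 higher became 795 without the filter, 230 at 10 CPM, 809 with the 12 libraries and 243 to 568, and 131 lower became 203 with the likelihood ratio test, 267 with DESeq2, 309 with the 12 libraries and 41 to 168.

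For introns, library size alone gave 1943 higher and 7790 lower with RK-33, against 4001 and 4322, and 1105 and 4847 in Combo, against 2369 and 2836. The intron shift, with 42 higher and 85 lower genes, had 11 lower with library size alone, 232 and 303 without the filter, 187 and 292 with the likelihood ratio test, 145 and 490 with DESeq2, and 150 and 144 with the 12 libraries. With 1 library left out, the shift had 9 to 112 higher and 10 to 243 lower genes, Combo had 1351 to 2659 higher, and the soluble fraction had 1889 to 2976 higher and 1250 to 2253 lower, against 2874 and 2123. Library size alone gave 3440 lower there.

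The replicate numbers were not shown to pair the libraries, since deviations of same-numbered libraries correlated at -0.31 to 0.34, over 0.1 in 4 of 12 pairs, and 5 of 12 correlated best with their own number. With the lysate as a replicate block, the shift called 9 genes higher and 0 lower on exons, and 8 and 10 on introns. NORAD (adjusted p = 0.0121) and LRRC58 (adjusted p = 0.0289) were among the called in this edgeR fit, and ZCCHC14 (adjusted p = 0.287) was not. With the replicate number as the block, the exon shift called 60 higher and 23 lower. No other call of the 3 genes changed with a block. Depth limits the introns of LRRC58 most, at 31 to 150 counts in a library.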

Other observations

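The shift from RK-33 to Combo was also set beside the number of Pumilio matches over all tested genes, as a description. Its median was 0.017 for 11103 genes with 0 matches, -0.085 for 327 genes with 5 to 9 matches and -0.31 for 32 genes with 10 or more, and without RK-33 the medians were -0.020, -0.065 and -0.33. The median exon lengths of these groups were 3613, 14253 and 28694.5 nt, so that matches and length cannot be told apart here.

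Of the 10 genes with at least 15 matches, NORAD and the noncoding RNA HCG11 had shifts above 1, and HCG11 was singled out after its values were seen. With 16 matches in 5696 nt, HCG11 shifted by 2.08 without and by 1.496 with RK-33, and its fraction difference was -0.47 in Ctrl and 1.61 after NaAsO2. The other 8 genes had shifts of -1.33 to 0.41 without and -1.11 to 0.52 with RK-33. Among them, ENSG00000287643, with 24 matches in 4683 nt, shifted by -1.33 without and by -0.37 with RK-33. The mean level was 322 CPM for NORAD, 16.4 CPM for HCG11 and 3.09 CPM for ENSG00000287643.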
